A study of Mus musculus with 5 samples.

Results

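The 10 genes described here encode receptor and signalling components of the interleukin-6 (IL-6) cytokine family and of the TWEAK receptor, a pair of pathways tied to muscle wasting, and were chosen by name: Il6ra, Il6st, Osmr, Lifr, Stat3, Socs3, Cebpb, Cebpd, Il15 and Tnfrsf12a. All 10 were found among the 35275 genes of the table, and all 10 lay among the 10710 genes whose mean reached 1 FPKM (reads scaled per kilobase of gene and per 1e+06 reads of a library). The tissue was gastrocnemius, a mainly fast calf muscle, of female, 12-week-old NSG mice. This immunodeficient strain combines the scid mutation in Prkdc with loss of Il2rg, shared by every mouse here, and the labels give the genotype as Wild Type. Each mouse had 10 tail-vein injections, 2 a week for 5 weeks, of about 10 µg of extracellular vesicles (EV). The vesicles came from MCF-10A/miR122, a human mammary epithelial line whose name refers to the microRNA miR-122. Muscle was collected 2 days after the last injection. The 5 samples form 1 group with no control, so the data give levels and the spread between samples, and not an effect of the vesicles. Nothing in the labels says outright that each sample is 1 animal, so any p-value measures only the spread between these samples.

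Cytokines of the IL-6 family act through gp130, the signal-transducing chain encoded by Il6st, which pairs with a chain that is specific for the ligand. The paired receptor activates JAK kinases, which phosphorylate the transcription factor STAT3, and STAT3 induces Socs3, an inhibitor that feeds back on gp130. C/EBP transcription factors, encoded by Cebpb and Cebpd, are further outputs of this signalling and of glucocorticoids. TWEAK, encoded by Tnfsf12, is a ligand of the tumour necrosis factor family that binds Fn14, the product of Tnfrsf12a, and activates NF-κB, and Fn14 is known to be scarce in resting muscle and induced by injury and denervation. IL-15 is a cytokine made by muscle fibres whose receptor uses the common gamma chain encoded by Il2rg.

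The libraries held 16674504 to 25407988 reads, and a member of the set had 60 to 4824 reads in a library. Library 3 stood apart from the others. All 10 macrophage markers were highest there (summed level 366 FPKM against 93.9 to 124), as were all 8 markers of regenerating muscle (155 against 20.8 to 34.5). So were all 5 adipocyte markers (272 against 38.2 to 136) and 6 of 8 fibroblast markers. Of 5 red blood cell markers, the 4 that reached a mean of 1 FPKM were highest there (all 5 summed, 1028 against 328 to 500). Of 6 endothelial markers 1 was highest there, and of 6 muscle fibre markers none. Library 2 was highest for all 6 slow fibre markers (summed level 3770 FPKM against 1122 to 1719). Lymphocyte markers summed to 0.186 to 0.642 FPKM, with the natural killer marker Ncr1 at 0 reads in all 5 libraries. In such bulk tissue fewer cells of a type and less RNA per cell cannot be told apart.

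Promoter sequences are shown for Socs3 and Tnfrsf12a, whose level in library 3 stood above the others, and for Cebpb, which with Cebpd had another order of libraries. RefSeq promoters (GRCm38.p6, the mm10 assembly) were matched for 8 of the 10 members, Cebpd and Il15 being the exceptions. Each run covers 230 bases, from -250 to -21 relative to the annotated start, 5′ to 3′ on the strand of the gene. Capitals mark matches to any of the motifs searched on both strands, which were the STAT motif TTCNNNGAA, the C/EBP motif TTGCNNAA, the AP-1 motif TGANTCA, the full cyclic AMP response element TGACGTCA and its shorter part TGACG, which lies within the full one, the GC box GGGCGG, the CCAAT box, the TATA box TATAAA, and the NF-κB motif.
Socs3 (chr11:117969387-117969616, minus strand): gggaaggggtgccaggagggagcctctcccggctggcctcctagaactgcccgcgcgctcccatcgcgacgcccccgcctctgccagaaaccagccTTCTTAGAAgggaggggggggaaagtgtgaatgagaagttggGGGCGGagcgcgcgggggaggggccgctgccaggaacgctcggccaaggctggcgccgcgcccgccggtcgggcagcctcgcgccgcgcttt
Tnfrsf12a (chr17:23677470-23677699, minus strand): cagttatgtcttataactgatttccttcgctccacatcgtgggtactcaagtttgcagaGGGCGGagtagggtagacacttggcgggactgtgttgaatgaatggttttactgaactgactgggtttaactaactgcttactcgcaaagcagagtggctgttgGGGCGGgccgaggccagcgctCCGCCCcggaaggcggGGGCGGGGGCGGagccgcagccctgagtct
Cebpb (chr2:167688665-167688894, plus strand): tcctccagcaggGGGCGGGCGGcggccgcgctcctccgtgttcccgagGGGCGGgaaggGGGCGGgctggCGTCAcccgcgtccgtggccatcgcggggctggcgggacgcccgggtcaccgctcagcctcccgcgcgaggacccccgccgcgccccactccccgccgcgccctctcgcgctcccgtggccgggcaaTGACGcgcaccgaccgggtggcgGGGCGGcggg
Among the 9 windows of members (Lifr has 2), that of Socs3 was the only one with a match to the STAT motif, at -154 to -146 from its start, which 6.48% of all 32851 promoter windows hold. The window of Tnfrsf12a held 5 GC boxes and no other match, and that of Cebpb held 5 GC boxes and 2 copies of TGACG, at -180 to -176 on the minus strand and at -53 to -49 on the plus strand. A GC box was present in 29.8% and TGACG in 15.9% of all windows. None of the 9 windows had a match to the C/EBP, AP-1 or NF-κB motif, present in 9.05%, 6.34% and 3.61% of all windows. The window of Cebpb was 82.2% G and C with 39 CpG dinucleotides, against medians of 51.7% and 5 over all windows. The window of Socs3 lies within the span that GENCODE gives for the gene, as do those of Osmr and Lifr. These matches describe letters in a window and show nothing about binding.

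The shared chain gp130 was by far the most abundant of the 4 IL-6 family receptor chains among the members. Il6st (ENSMUSG00000021756, chromosome 13, 112464070 to 112510086) was at 20.4, 19.8, 21.2, 17.1 and 21.9 FPKM in libraries 1 to 5 (gene positions are on GRCm38), a mean of 20.1 ± 1.85 (SD, n = 5). Library 4 was the lowest and the other libraries lay close together, and its coefficient of variation, 9.23%, was larger than in 15.9% of tested genes only. Il6ra (chromosome 3, 89864059 to 89913196), which encodes the chain that binds IL-6 itself, was at 1.03, 1.73, 2.15, 0.979 and 1.65 FPKM (1.51 ± 0.498). It was low in libraries 1 and 4 and highest in library 3, on 78 to 140 reads, and the exact Poisson intervals at 95% of library 3 (1.78 to 2.57) and library 4 (0.774 to 1.22) did not overlap. Within each library Il6st exceeded Il6ra 9.86-fold to 19.8-fold.

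Lifr and Osmr encode the chains that join gp130 to receive leukaemia inhibitory factor and oncostatin M. Lifr (chromosome 15, 7090614 to 7197489) was at 5.46, 5.17, 4.19, 3.98 and 3.64 FPKM (4.49 ± 0.787), highest in library 1 and lowest in library 5. Osmr (chromosome 15, 6813577 to 6874969) was at 1.41, 1.5, 1.85, 1.41 and 1.5 FPKM (1.53 ± 0.182). Its libraries other than 3 were nearly equal. On the inferred reads it was the only member not to vary beyond counting error (adjusted p = 0.0783, chi-square test, Benjamini-Hochberg adjusted). A multiple of its inferred length would give more reads and a smaller p, so this is not settled. On the log2(FPKM + 1) scale used for all log2 values here, the log2 ratio of Lifr over Osmr was 1.11 ± 0.25 with Lifr above in 5 of 5 libraries. Il6ra and Osmr did not keep an order, with Il6ra above in 3 of 5 libraries and a log2 ratio of -0.03 ± 0.21 (two-sided p = 0.688 in an exact permutation test by sign flips). At the annotated exon length, an alternative chosen after seeing the data, Il6ra lay below Osmr in 5 of 5 libraries, by a log2 ratio of -0.11 ± 0.12 (p = 0.0625 in the same exact test).

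**Figure D1:**
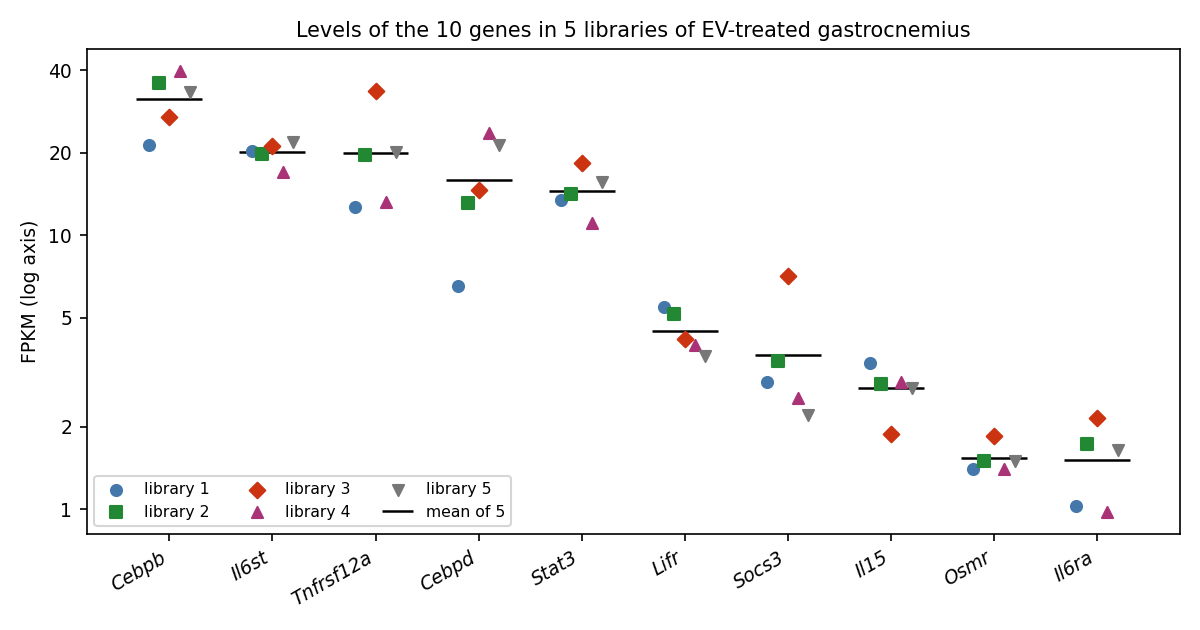
Level of each of the 10 genes in FPKM (log axis), with 1 point per library and a line at the mean of 5, genes ordered by mean. Il6st lies within 17.1 to 21.9 FPKM, while Socs3 and Tnfrsf12a are highest in library 3 and Cebpd is lowest in library 1.

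Among the receptor chains outside the set, Cntfr and Il11ra1 were more abundant than Il6ra. Cntfr, the chain for ciliary neurotrophic factor, was at 25.2 ± 5.79 FPKM (lowest 18.5 in library 3, highest 34.3 in library 4), and Il11ra1, the chain for IL-11, at 16.7 ± 3.33 FPKM. Shares were taken of the summed FPKM of gp130 and 5 partner chains, with Il27ra and Il31ra left out. Cntfr took 36.1% ± 7.22, Il6st 29.1% ± 3.95 and Il11ra1 24.0% ± 4.56. Lifr took 6.46% ± 1.01, Osmr 2.22% ± 0.331 and Il6ra 2.19% ± 0.785. Chains for ligands other than IL-6 and oncostatin M thus made up most of the partner transcripts. Il27ra was at 0.191 ± 0.0353 FPKM. Il31ra was at 0.161 FPKM in library 5, on 3 inferred reads or more, and had none elsewhere.

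Transcripts of most ligands described here were scarce. Ctf1, which encodes cardiotrophin-1, was the exception at 6.91 ± 1.53 FPKM. Il6 had 7, 1, 0, 1 and 0 reads in libraries 1 to 5, so that the highest value, 0.281 FPKM, rested on 7 reads, and 3 reads correspond to 0.109 to 0.166 FPKM. Lif was at 0.246 ± 0.121 FPKM on 12 to 34 reads, and Clcf1 at 0.412 ± 0.172 on 19 to 45 reads. Osm had 11 reads in all, Il11 9, Cntf 3, Ctf2 38, Il27 7 and Ebi3 17, and Il31 none, which allows up to 0.0977 to 0.149 FPKM for Il31. Levels of Il6ra set against Il6 are therefore limited by the depth of Il6. The reads of Il6, like those of other genes at an inferred length, are the smallest that fit the values. Ctf1 and Ctf2 overlap on opposite strands, and without a stated strand setting their reads cannot be told apart there.

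Stat3, the transcription factor that carries the signal of gp130, was highest in library 3. Stat3 (ENSMUSG00000004040, chromosome 11, 100885098 to 100939540) was at 13.5, 14.2, 18.3, 11 and 15.7 FPKM (14.5 ± 2.70, SD, n = 5). Library 3 exceeded the next library 1.17-fold, and the mean without it was 13.6. Stat3 took 17.8% ± 4.23 of the summed FPKM of the 7 STAT genes, and the largest share was that of Stat5b, the STAT of growth hormone signalling, at 61.5% ± 9.25. Stat5b was at 50.9 ± 10.4 FPKM and lowest in library 3, so that its ratio to Stat3 ran from 1.87 in library 3 to 5.11 in library 4. Stat3 lay below the kinase gene Jak1 (22.4 ± 3.73 FPKM) in 5 of 5 libraries, by a log2 ratio of -0.59 ± 0.23.

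Socs3, the feedback inhibitor of gp130, was the member with the largest coefficient of variation. Socs3 (ENSMUSG00000053113, chromosome 11, 117966079 to 117970047) was at 2.91, 3.49, 7.10, 2.55 and 2.21 FPKM (3.65 ± 1.98, SD, n = 5), on 143 to 302 reads. Library 3 was high, at 2.03-fold the next library, and its exact Poisson interval (6.32 to 7.94 FPKM) lay above those of the other libraries, the highest of which reached 4.06. The mean was 2.79 ± 0.548 without library 3. Its coefficient of variation, 54.4%, was larger than in 95.7% of tested genes and fell to 19.7% without that library. Stat3 exceeded Socs3 in 5 of 5 libraries, by a log2 ratio of 1.81 ± 0.40 that was smallest in library 3 (1.25).

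In the JAK-STAT lists the counts lay near those of all tested genes, of which 87.9% varied beyond counting error and 37.4% were highest in library 3. Of 15 JAK-STAT and adaptor genes 13 were tested, 13 varied beyond counting error and 4 were highest in library 3. Grb2, an adaptor, was at 28.3 ± 1.18 FPKM, and Ptpn11, which encodes the phosphatase SHP2 that binds gp130, at 13.7 ± 1.56. Of 15 genes of inhibitors and related regulators 13 were tested, 13 varied beyond counting error and 5 were highest in library 3. Socs7 (12.1 ± 1.2 FPKM) and Pias4 (11.5 ± 1.05) were the most abundant of these and both were lowest in library 3. Socs1 was at 1.61 FPKM in library 1 and 0.484 to 1.06 elsewhere, and Cish at 1.23 in library 1 and 0.176 to 0.896 elsewhere, so neither was highest in library 3, and both lay below a mean of 1 FPKM and were not tested. The haematopoietic phosphatase gene Ptpn6 was highest in library 3, at 2.75 against 0.529 to 0.983 FPKM, beside the macrophage markers given above. The part of these markers in the levels of Socs3 and Ptpn6 was not tested.

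Both C/EBP members were lowest in library 1 and highest in library 4. Cebpb (ENSMUSG00000056501, chromosome 2, 167688915 to 167690418), the most abundant member, was at 21.3, 35.9, 27.0, 39.7 and 33.3 FPKM (31.4 ± 7.31, SD, n = 5). Cebpd (ENSMUSG00000071637, chromosome 16, 15887286 to 15891031) was at 6.51, 13.2, 14.7, 23.7 and 21.3 FPKM (15.9 ± 6.83). This combination, picked after the values of these 2 genes were seen, was found in 1.34% of tested genes. The libraries between stood in a different order for each gene. Cebpd reached 3.64-fold from its lowest to its highest library. Cebpb exceeded Cebpd in 5 of 5 libraries, by 3.28-fold in library 1 and 1.56-fold in library 5. Of the summed FPKM of 5 C/EBP genes, Cebpb took 48.4% ± 6.82, Cebpd 23.4% ± 6.52, Cebpg 14.6% ± 4.51 and Cebpa 13.5% ± 9.85, the last reaching 30.8% in library 3. Cebpa was highest in library 3 and Cebpg in library 5, so neither followed the members. The spread of Cebpd did not rest on library 3, since its SD on the log2 scale was 0.68 with that library and 0.78 without it. Library 1 weighed more, since without it the unadjusted p of Cebpd in the variance test (limma, given with the whole set) went from 0.0140 to 0.110. Exons of Il6ra overlap Gm42809 and those of Stat3 overlap Stat5a on the opposite strand, with the same limit as above. Exons of Cebpb overlap Tmem189, and those of Cebpd overlap Spidr, on the opposite strand.

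Of the wider list of published STAT3 targets and other C/EBP genes, 19 of 24 were tested, 18 varied beyond counting error and 10 were highest in library 3, beside 87.9% and 37.4% of all tested genes. Timp1, an inhibitor of matrix proteases, was at 34.4 FPKM in library 3 against 1.62 to 3.42 in the others, the acute phase genes Hp and Serpina3n at 21 against 1.2 to 3.09 and 11.9 against 1.52 to 3.03, and Cebpa, a C/EBP gene of fat cells among others, at 22.1 against 4.96 to 7.33. The markers of macrophages, regenerating muscle and adipocytes were highest in the same library, and their part was not tested. The sum of the adipocyte markers was next highest in library 4, as was Cebpa, whereas Timp1, Hp and Serpina3n were next highest in library 2. The most abundant genes of the list were not highest in library 3. Vegfa (70.4 ± 17.9 FPKM) was lowest in library 3, Mcl1 (66.3 ± 11.9) and Junb (24.6 ± 10.8) were highest in library 2, Bcl6 (21.1 ± 7.47) was highest in library 5, and the stress gene Ddit3 (15.6 ± 6.90) was highest in library 1, where Cebpb and Cebpd were lowest. Fos, an immediate early gene, was at 40.4 FPKM in library 2 and 25.7 in library 3 against 2.61 to 3.17 in the others. The score of the list, its mean deviation on the log2 scale, reached 0.68 in library 3 and ran from -0.34 to 0.10 elsewhere.

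**Figure D2:**
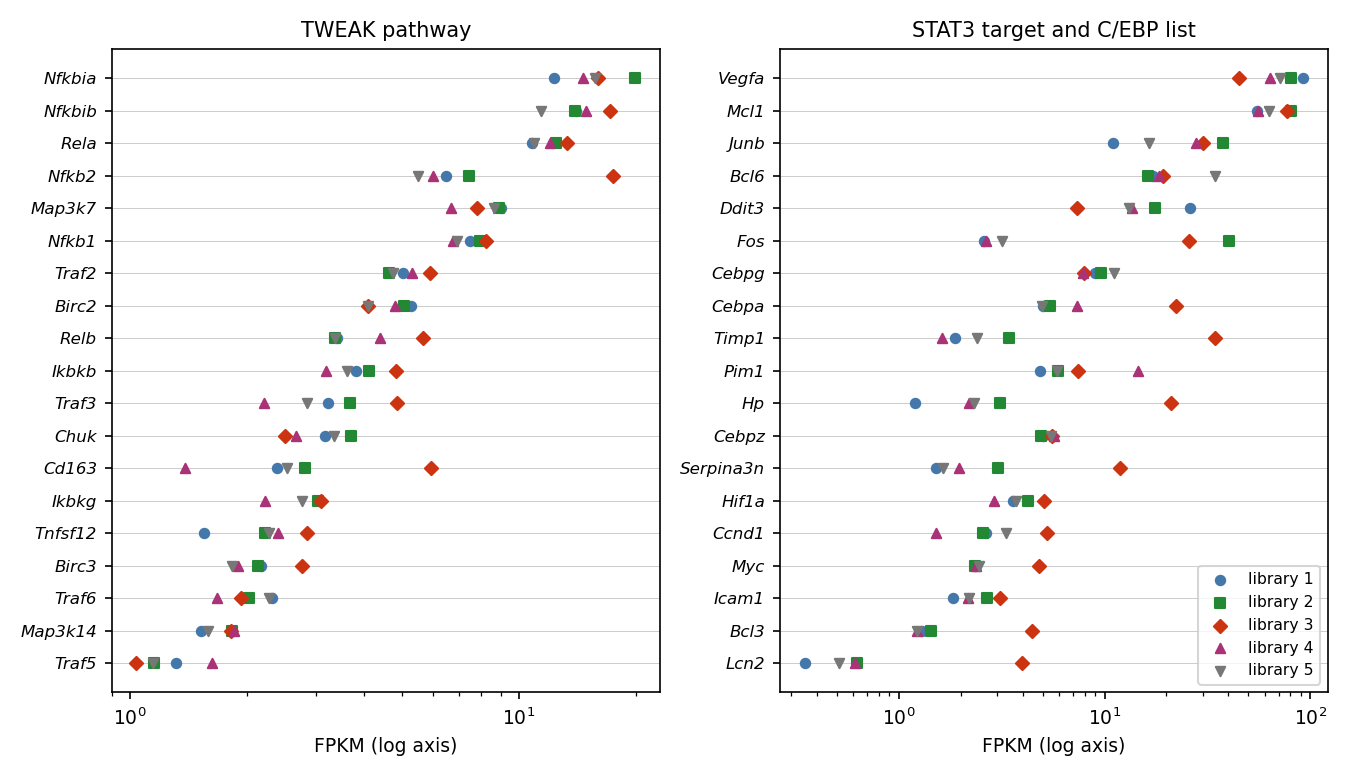
FPKM (log axis) in each library of the 19 tested genes of the TWEAK pathway list (left) and the 19 tested genes of the list of STAT3 targets and other C/EBP genes (right), ordered by mean. Library 3 (diamonds) lies far to the right for Nfkb2 (17.4 FPKM), Timp1 (34.4), Hp (21) and Cebpa (22.1), and library 2 for Fos (40.4).

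Tnfrsf12a, the TWEAK receptor gene, had a coefficient of variation of 42.4%, against 9.23% for Il6st. Their means were 19.9 and 20.1 FPKM, and 9.92 and 15.7 at the annotated exon length. Tnfrsf12a (ENSMUSG00000023905, chromosome 17, 23675445 to 23677468) was at 12.7, 19.7, 33.6, 13.2 and 20.2 FPKM (19.9 ± 8.43, SD, n = 5), on 281 to 540 reads. Library 3 was the highest at 1.67-fold the next, libraries 1 and 4 were low, and libraries 2 and 5 lay between them. Without library 3 the mean was 16.5 ± 4.02, and the reads of the other 4 libraries still varied beyond counting error (adjusted p = 2.03e-13, chi-square test, Benjamini-Hochberg adjusted). Socs3 and Tnfrsf12a were the members that were highest in library 3 by 1.5-fold or more over the next library, as were 7.25% of all tested genes. The ligand gene Tnfsf12 was at 1.55, 2.22, 2.84, 2.40 and 2.28 FPKM, and the receptor exceeded it 5.52-fold in library 4 to 11.8-fold in library 3. Exons of Tnfsf12 overlap Tnfsfm13 on the same strand, between which reads may be split.

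Of 21 genes in the TWEAK and NF-κB list, 19 were tested, 17 varied beyond counting error and 12 were highest in library 3, beside 87.9% and 37.4% of all tested genes. Nfkb2, the precursor of the noncanonical NF-κB subunit p52, was at 17.4 FPKM in library 3 against 5.49 to 7.44, and its partner Relb at 5.66 against 3.35 to 4.40. Cd163, a scavenger receptor for TWEAK and itself a macrophage gene, was at 5.95 against 1.38 to 2.82 FPKM. The canonical subunit gene Rela (11.9 ± 1.06 FPKM) and the inhibitor genes Nfkbib (14.3 ± 2.04) and Nfkbia (15.7 ± 2.75) varied less, and Nfkbia was highest in library 2. Map3k14, which encodes the kinase of the noncanonical branch, was at 1.72 ± 0.156 FPKM. On the inferred reads it did not vary beyond counting error, and neither did Traf5. The list score reached 0.20 in library 3 and ran from -0.11 to 0.04 elsewhere.

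Of 4 ubiquitin ligase genes known from muscle atrophy, 3 were lowest in library 3 and 1 was highest there, beside 17.1% and 37.4% of all tested genes. Trim63 was at 96.9 FPKM in library 3 against 118 to 185, Fbxo32 at 18.9 against 31.2 to 38.0 and Fbxo31 at 45.3 against 55.9 to 79.8. Fbxo30 was highest there, at 3.84 against 1.98 to 3.07. All 4 varied beyond counting error, as did 87.9% of all tested genes.

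Il15 was the only member that was lowest in library 3. Il15 (ENSMUSG00000031712, chromosome 8, 82331632 to 82403222) was at 3.41, 2.86, 1.89, 2.90 and 2.76 FPKM (2.76 ± 0.551, SD, n = 5). Library 3 was low and library 1 high, but library 3 had 60 reads and an exact Poisson interval of 1.44 to 2.43 FPKM, which overlapped those of libraries 2 (2.33 to 3.47) and 5 (2.32 to 3.27). Without library 3 the reads of Il15 did not vary beyond counting error (adjusted p = 0.321, chi-square test, Benjamini-Hochberg adjusted). Il15ra, which presents IL-15, was at 5.07, 5.43, 3.60, 4.08 and 3.72 FPKM, above Il15 in 5 of 5 libraries by 1.35-fold to 1.91-fold. This order was lost at the annotated exon length, where Il15 lay above Il15ra in 3 of 5 libraries (exact sign-flip p = 0.813). Il2rb had 1 to 4 reads and Il2rg 0 to 4 reads in a library, against a null allele of Il2rg in the strain, and Il2 had none, which allows up to 0.103 to 0.157 FPKM.

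Across the set, 9 of 10 members varied beyond counting error between libraries on the inferred reads, as did 87.9% of all genes tested. The count thus says little about these genes in particular. The median coefficient of variation was 21.6% for the members and 16.3% for all tested genes, and 8 of 10 members lay above the latter. In the test of whether a gene varied more than genes of like level (limma, variance over its abundance trend, Benjamini-Hochberg adjustment), no member and 0% of all genes passed an adjusted p of 0.05. With 5 libraries this test can call extreme genes only, so the absence of calls says little. At an unadjusted p of 0.05, 3 members and 5.75% of all genes passed. The members were Cebpd (adjusted p = 0.695), Tnfrsf12a (0.809) and Socs3 (0.836) in that limma fit. Their number was 1 with robust empirical Bayes estimates (Cebpd), and 2 without library 1 (Socs3 and Tnfrsf12a) or without the filter on the mean (Cebpd and Tnfrsf12a). Without library 3 the members below an unadjusted 0.05 were Cebpd (adjusted p = 0.246, limma) and Cebpb (0.868), and Socs3 and Tnfrsf12a were no longer among them.

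**Figure D3:**
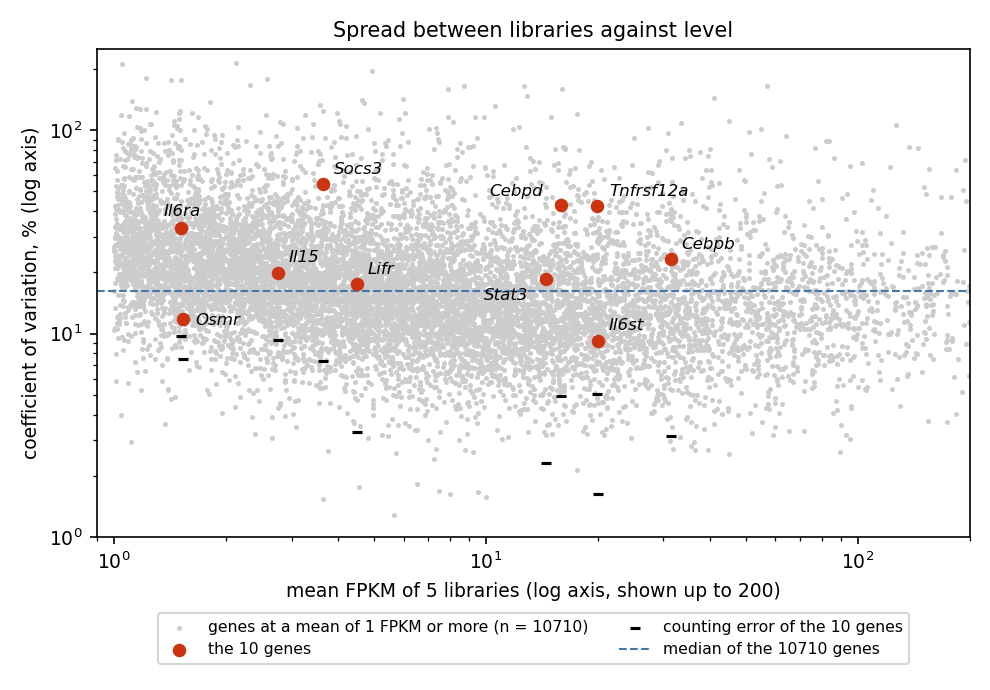
Coefficient of variation between the 5 libraries in % against mean FPKM (both log axes) for all tested genes (grey), with the 10 genes in red, their counting error as black bars and the median of all genes as a dashed line. Socs3 (54.4%), Cebpd (43.0%) and Tnfrsf12a (42.4%) lie high for their level, and Il6st (9.23%) and Osmr (11.9%) below the median of 16.3%.

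Library 3 was highest for 5 of 10 members (Il6ra, Osmr, Stat3, Socs3 and Tnfrsf12a), beside 37.4% of all tested genes. Library 1 was highest for 2 members (Lifr and Il15) against 21.2% of all genes, library 4 for 2 (Cebpb and Cebpd) against 10.5%, library 5 for 1 (Il6st) against 7.68% and library 2 for 0 against 23.2%. Library 1 was the lowest for 4 members (Osmr, Cebpb, Cebpd and Tnfrsf12a) against 10.2% of all genes, library 4 for 3 (Il6ra, Il6st and Stat3) against 38%, library 5 for 2 (Lifr and Socs3) against 24.9%, library 3 for 1 (Il15) against 17.1% and library 2 for 0 against 9.8%. With library 3 left out, libraries 2 and 5 were each highest for 3 members, against 40.9% and 12.8% of all genes, and libraries 1 and 4 each for 2, against 29% and 17.3%. The 5 of 10 members highest in library 3 lie near the share of all genes and say little about the set. Under median-of-ratios scaling the lowest library of Il6ra changed from 4 to 1, so that library 1 was lowest for 5 members and library 4 for 2.

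**Figure D4:**
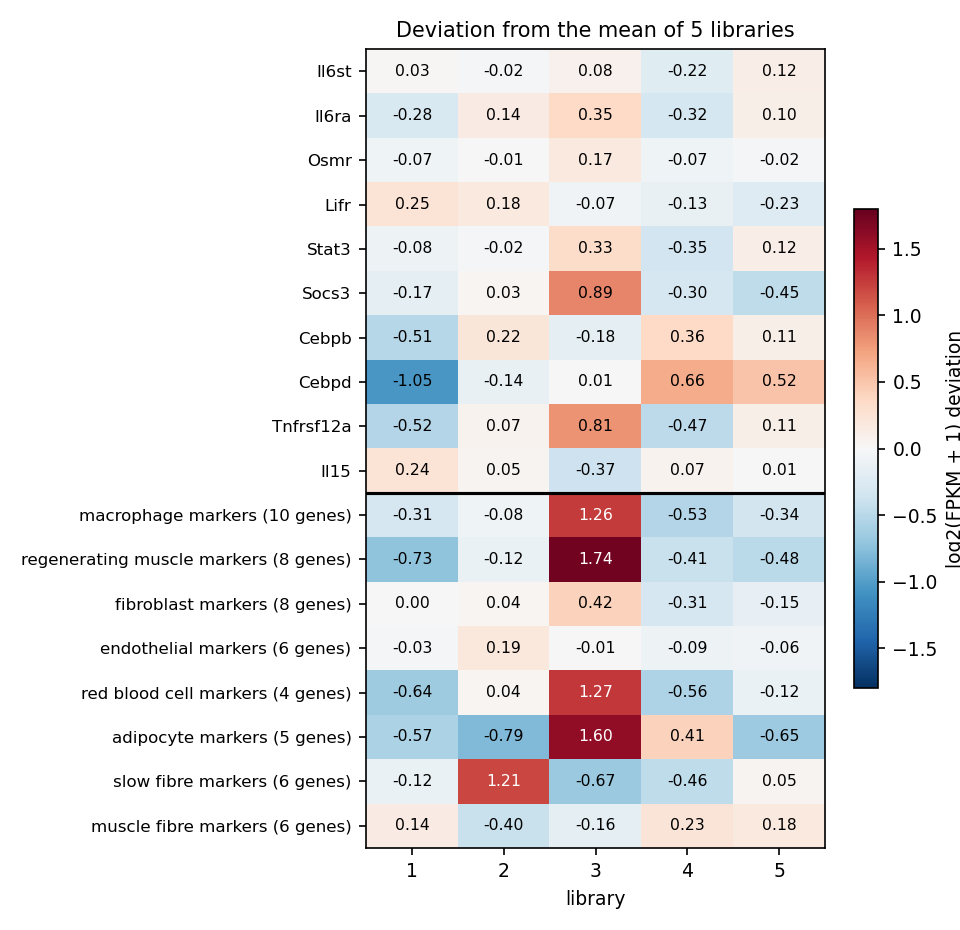
Deviation of each gene (above the line) from its mean over the 5 libraries, in log2(FPKM + 1), and the mean deviation of marker lists (below the line), for libraries 1 to 5. Socs3 (0.89) and Tnfrsf12a (0.81) are high in library 3 together with markers of regenerating muscle (1.74), macrophages (1.26) and adipocytes (1.60), and Cebpd is low in library 1 (-1.05).

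For the 3 members with the largest SD, the genes with the most similar profile over the 5 libraries were sought among 3808 other genes with a mean of at least 10 FPKM, by the Euclidean distance between centred log2 values, as a description only. Cebpd lay closest to Tob2 (distance 0.38, against a median of 1.45), Klf4 (0.58) and Tsc22d3 (0.60), the last being a well known glucocorticoid-induced gene. Tob2 was at 14.1, 26.2, 33.0, 47.5 and 58.2 FPKM and Tsc22d3 at 35.5, 66.5, 51.6, 75.7 and 96.3, both lowest in library 1. Tnfrsf12a lay closest to the haemoglobin genes Hba-a1 (0.18, median 1.09) and Hbb-bs (0.31) and to Myadm (0.31). Hba-a1 was at 210, 312, 590, 214 and 306 FPKM, the same order of libraries as Tnfrsf12a except for libraries 2 and 5, and the part of blood in this likeness was not tested. Socs3 lay closest to Shisa5 (0.09, median 1.03), Ctsz (0.13), which encodes a lysosomal protease, and Ppib (0.13).

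Ordered by mean level, the members ran from Cebpb over Il6st, Tnfrsf12a, Cebpd, Stat3, Lifr, Socs3, Il15 and Osmr to Il6ra. Of the neighbours in this order, Cebpb lay above Il6st, Stat3 above Lifr and Il15 above Osmr in 5 of 5 libraries, with log2 ratios of 0.60 ± 0.43, 1.5 ± 0.35 and 0.56 ± 0.32. The other 6 neighbouring pairs changed order between libraries, with exact sign-flip p of 0.313 to 0.938. Over all 20 pairs compared, 14 kept 1 order in 5 of 5 libraries, each at p = 0.0625 in the exact two-sided sign-flip permutation test (0.0893 after Benjamini-Hochberg adjustment over 20 pairs), the lowest value this design can give, which is above 0.05. Il6st exceeded Il6ra by a log2 ratio of 3.09 ± 0.23, Osmr by 3.05 ± 0.12 and Lifr by 1.95 ± 0.25, and Tnfrsf12a exceeded Tnfsf12 by 2.61 ± 0.40. The added 1 FPKM lowers such ratios where a gene is low. With 0.1 added in its place they were, in that order, 3.70, 3.63, 2.15 and 3.02. These comparisons between genes depend on the gene lengths behind the deposited values, which were inferred. The shortest that gave whole reads were 1180 bases for Cebpd, 3343 for Il6ra, 5491 for Osmr and 963 for Tnfrsf12a. They were shorter than the annotated exons by factors of 3.17, 2.59, 2.21 and 2.01. Multiples of these lengths give whole reads too, so the lengths, reads and values at the annotated exon length are the smallest that fit. At the annotated exon length, an alternative chosen after seeing the data, the means were 5.00 FPKM for Cebpd, 9.92 for Tnfrsf12a, 0.583 for Il6ra and 0.694 for Osmr, and Cebpd lay below Stat3 by a log2 ratio of -0.84 in place of 0.02. Ratios of FPKM of 1 gene between libraries do not depend on its length, whereas values on the log2(FPKM + 1) scale do.

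**Figure D5:**
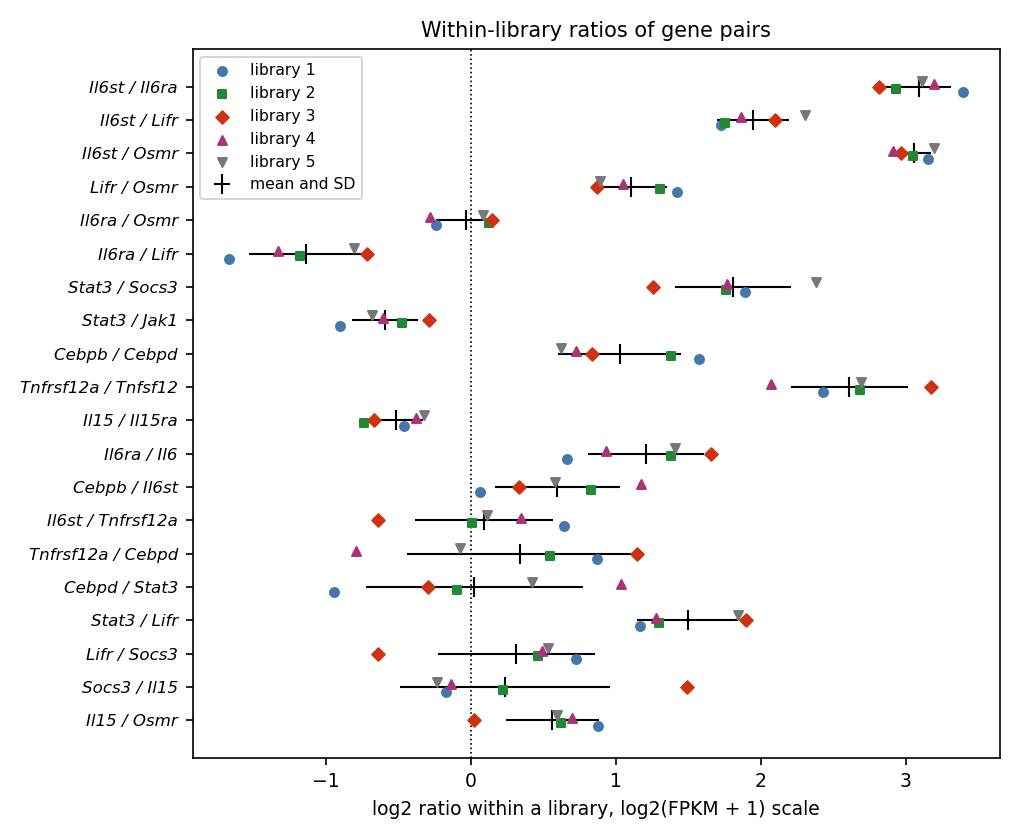
Log2 ratio of gene pairs within each library (points), on the log2(FPKM + 1) scale, with the mean and SD of 5 libraries as black marks and a dotted line at equal levels. Il6st lies above Il6ra, Osmr and Lifr in each library, and library 3 (diamonds) stands apart for Lifr over Socs3 (-0.64) and Socs3 over Il15 (1.49).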

How the data were processed

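Messenger RNA of gastrocnemius was sequenced in 5 samples, which form a single group. Trizol extraction, per the labels' protocols, started from about 20 mg of tissue, and mRNA was purified on poly-T beads. The deposited values are taken as FPKM computed by the authors, a unit inferred from the values themselves, since they turn into whole reads as described next. Per the submitters' processing notes TopHat, STAR 2.5, HTSeq 0.6.1, DESeq2, edgeR and mm10 were used, with no role given. Not given in the sources used here are the annotation, the strand setting and how reads matching several genes were treated.

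Of 35275 gene identifiers, 34490 were matched to GENCODE M21 (GRCm38), which gave symbols and positions. A library's total was taken as the whole number that most often turned low values into whole reads at the exon length. For each gene a length was sought that made all 5 values whole reads within 0.001 of a read; the shortest such length was taken where the annotated one failed. This gave reads for 20816 of 20840 genes above 0 (99.9%), which summed to 99.4% ± 0.0175 of the totals, but 4544 genes only were whole at their annotated length. Depth and counting intervals rest on these reads and cover counting error only. A multiple of the shortest length also gives whole reads, so reads at an inferred length are the smallest that fit. With more reads the chi-square p of a gene would be smaller.

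Genes whose mean reached 1 FPKM entered the tests: limma 3.58.1 in R 4.3.3 on log2(FPKM + 1), by an F test (4 and 3.93 degrees of freedom) of each variance over its abundance trend, and, on the reads, a chi-square test against equal shares of the library totals, both adjusted after Benjamini and Hochberg. Both tests were first tested on simulated data. The variance test called 0% of genes given 4 times the SD and 38% of those given 16 times. The chi-square test called 88% of 1.5-fold changes, in simulated reads with counting error only, unlike these data. Pairs were tested by exact sign flips over 32 patterns. Other steps ran in Python 3.11.15 with pandas 2.3.3, scipy 1.17.1, numpy 2.4.6, and figures in matplotlib 3.10.9. The members, lists and pairs were chosen with earlier results of these data known. Named were all members, the ligands except for an item not reported here, list genes reaching a mean of 10 FPKM, and 3 nearest profiles for each of 3 members. The rule also named list genes past a test, but nearly all passed the counting test, so those are given as counts, and any named with a lower mean were picked after their values were seen. Il27ra, Il31ra, Socs1, Cish, Il2rb, Il2rg, Il2 and Ncr1 were named after their values were seen. Alternatives covered scaling, pseudocount, filter, the fit, gene length and each library left out.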

Additional observations from a re-analysis of the deposited data

Results flagged for a closer look

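Of 35 sets of 5 values examined for a single library far from the rest (10 member levels, 20 pair ratios and 5 list scores), 4 had one, where chance gives about 1 in 20. Library 3 was the distant one in each. It was also highest for 37.4% of all tested genes, and by 1.5-fold or more over the next library for 7.25%. The share of all tested genes with such a gap was not computed, so the count cannot be called particular to these genes. Osmr was at 1.85 FPKM there, with a gap of 0.779 of its whole range to the next library, and Socs3 at 7.10 FPKM with a gap of 0.738. The reads of Osmr did not vary beyond counting error (adjusted p = 0.0783, chi-square test, Benjamini-Hochberg adjusted). The log2 ratio of Lifr over Socs3 was -0.64 in library 3 and above 0 in the others, and that of Socs3 over Il15 was 1.49 there. These 3 results on Socs3 share its value in library 3 and are not separate observations.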

How the results depend on the processing

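No paired analysis was possible because the samples form 1 group. The means of the 10 members moved by less than their SD with any library left out. That must hold for any 5 values, so it says nothing about how stable the levels are. Under median-of-ratios scaling the means also moved by less than their SD. This scaling shifts all genes of a library by -0.08 to 0.12 on the log2 scale. It left the highest library of each member as it was. At the annotated exon length 6 of 10 means moved by more than their SD. With 1 library left out, 0 to 4 genes passed the variance test; the 4, without library 3, were Arrdc2, Slc25a25, Egr1 and Sln, named after their values were seen, and 0 passed under each other alternative. With 1 library left out, members varying beyond counting error numbered 8 to 10. Members highest were 0 to 3 in library 2 and 1 to 3 in library 5, and members lowest were 0 to 1 in library 2, 1 to 2 in library 3 and 3 to 5 in library 4. Of 140 alternative pair ratios, 8 reversed: with 1 library left out the mean log2 ratio ran from -0.080 to 0.028 for Il6ra over Osmr, -0.045 to 0.27 for Il6st over Tnfrsf12a, -0.23 to 0.26 for Cebpd over Stat3 and -0.081 to 0.35 for Socs3 over Il15, and at the annotated exon length it was 0.020 for Il15 over Il15ra and -0.84 for Cebpd over Stat3. The score SD of the list of STAT3 targets and other C/EBP genes was 0.42, and 0.19 without library 3; that of the TWEAK list was 0.13, and 0.07 without library 3 and 0.08 under median-of-ratios scaling. The cause of these changes was not tested.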
